A study of Vitis vinifera with 6 samples.

Results

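The genes described here are 81 grape berry transcripts that were at least 4-fold lower in berries of vines given a protein hydrolysate than in berries of vines given urea, out of 16030 genes abundant enough to be tested. The vines were Vitis vinifera cv. Black Magic, an early black table grape, grafted on the rootstock 1103P and grown under plastic film. GDPH vines were treated with SURNAN, a protein hydrolysate derived from corn gluten, and Control vines with urea. Both were given through the irrigation water at the start of ripening, at the same nitrogen dose of 1.25 kg per hectare. Deseeded berries were taken 14 days later, and each of the 3 GDPH and 3 Control libraries came from a pool of berries from 1 plot of 7 vines. The layout was a randomized block field trial with 4 plots per treatment. No library came from vines without added nitrogen, so every "lower" below is relative to urea.

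The 81 genes were chosen by their measured values in these same 6 libraries, as CPM, each gene's counts relative to the total of its library, scaled with TMM factors. A gene was taken if its Control mean was at least 5 CPM and at least 4 times its GDPH mean, if its highest GDPH value lay below its lowest Control value, and if it averaged under 1000 CPM. Of the 12040 tested genes with a Control mean of at least 5 CPM, 103 met the 4-fold limit, and 81 of these also had no overlap between the treatments. All 81 averaged under 1000 CPM. The 5 identifiers that the rule names for exclusion did not meet its numeric parts (0 of 5), so leaving them out removed no gene. The choice fixes the direction and the least size of the difference, which are therefore a description and not a result.

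Veraison is the point at which grape berries soften, begin to store sugar and, in black cultivars, turn colour. Many transcripts of the green berry decline at that time while transcripts of ripening increase. Protein hydrolysates are mixtures of peptides and amino acids that are used in viticulture as biostimulants, while urea supplies nitrogen that soil enzymes and roots must first convert. The deposited tables hold grapevine identifiers alone, and 0 of them had an entry in the reference table of names. The genes are therefore given by identifier, with no name or role, and the tissue label could not be set against marker genes. The chromosome of a gene was read from the first digits of its identifier. Because berries were pooled and extracted whole, fewer cells of a type and less RNA per cell cannot be told apart.

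The libraries held between 15092687 and 18763377 estimated counts, and TMM factors were 0.932 to 0.969 for GDPH and 1.05 to 1.06 for Control. A count of 0 allows up to 3 counts, which is 0.160 to 0.199 CPM in these libraries and covers counting error only. Libraries of one treatment come from separate plots, and libraries of both treatments share the numbers 1 to 3, which the labels do not tie to the field blocks. Because same-numbered libraries deviated together over all genes, values are also set side by side by number.

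The 81 genes ranged from weak to moderately abundant. Their GDPH means ran from 0.278 to 117 CPM with a median of 2.34 CPM, and their Control means from 5.11 to 499 CPM with a median of 19.4 CPM. Under GDPH 54 of the 81 genes averaged under 5 CPM and 12 averaged under 1 CPM. Under urea 29 averaged between 5 and 10 CPM, 39 between 10 and 100 CPM and 13 at least 100 CPM. The lowest Control count of any of these genes was 16, whereas 6 of the 81 genes had at most 3 counts in at least 1 GDPH library, and 1 of them had a count of 0 in a GDPH library. The differences of the weakest genes therefore rest on few counts under GDPH.

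Most of the genes lay close to the limit that chose them. The ratio of the Control mean to the GDPH mean had a median of 5.81 and a highest value of 37.5. It was between 4 and 5 for 27 genes, between 5 and 8 for 34, between 8 and 16 for 13 and at least 16 for 7. The fitted log2 fold change (GDPH over Control) had a median of -2.52 over the 81 genes and -0.01 over all 16030 tested genes. The same rule turned round, with GDPH at least 5 CPM and at least 4 times Control, gave 51 genes.

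**Figure D1:**
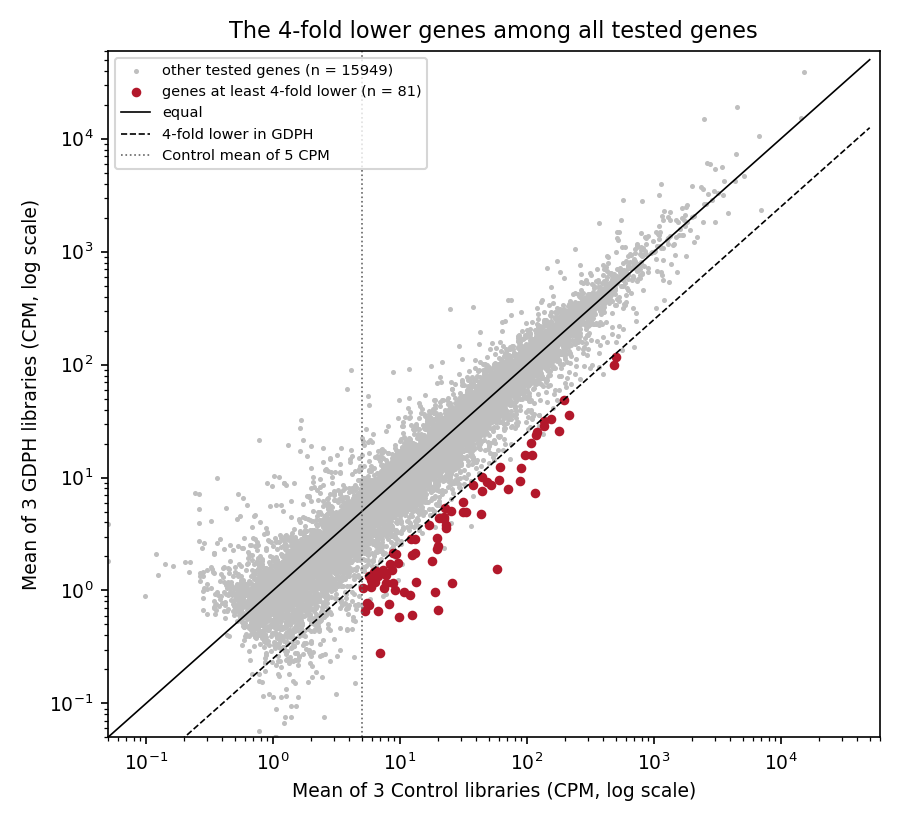
Mean CPM of the 3 GDPH libraries (vertical) against the mean CPM of the 3 Control libraries (horizontal), both on log scales, for the 81 genes at least 4-fold lower under GDPH (red) and all other tested genes (grey). The red points lie below the dashed 4-fold line and to the right of the dotted line at 5 CPM, as the rule requires, and 7 of them lie at least 16-fold below equality.

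The genes next to the limit show how narrow it is. Just inside, Vitvi03g00048 had 37.2, 47.3 and 61.3 CPM in GDPH libraries 1 to 3, against 146, 214 and 224 CPM in Control libraries 1 to 3, a ratio of 4.004. Vitvi02g00110 had 0.539, 3.48 and 2.48 CPM under GDPH, against 8.39, 12.1 and 6.18 CPM under urea, a ratio of 4.10. Just outside, Vitvi02g00235 had GDPH values of 2.69, 2.45 and 2.65 CPM and Control values of 6.57, 10.3 and 13.6 CPM, a ratio of 3.90. Vitvi01g01462 had a ratio of 3.90 as well, at 1.65 ± 0.485 CPM under GDPH and 6.43 ± 1.46 CPM under urea (SD, n = 3 each). These 4 genes differ little in the ratio.

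The most abundant of the genes were those with the highest Control means. Vitvi03g04038, on chromosome 3, had 65.2, 125 and 162 CPM in the GDPH libraries, against 362, 368 and 769 CPM in the Control libraries. It averaged 117 ± 49.0 CPM under GDPH and 499 ± 233 CPM under urea (SD, n = 3 each), which is 4.25-fold lower. Vitvi10g01839, on chromosome 10, had 58.3, 115 and 127 CPM under GDPH, against 484, 488 and 471 CPM under urea. Its Control plots were nearly equal, and for both genes GDPH library 1 was the lowest and the treatments were far apart. Vitvi10g01839 averaged 100.1 ± 36.6 CPM under GDPH and 481 ± 9.27 CPM under urea (SD, n = 3 each), 4.81-fold lower. It held fractional counts, the mark of reads divided among genes, so its level is uncertain.

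Vitvi01g01923, on chromosome 1, was the most uneven of the abundant genes under GDPH. It had 5.05, 61.6 and 40.7 CPM in GDPH libraries 1 to 3, against 212, 214 and 217 CPM in the Control libraries, so that 1 GDPH plot was far below the others while the Control plots agreed closely. Set side by side by number, the gene was 41.9-fold lower under GDPH for number 1, 3.47-fold for number 2 and 5.34-fold for number 3. Its fitted log2 fold change was -2.58 with all libraries, -3.23 without GDPH replicate 2 and -2.06 without GDPH replicate 1. Vitvi05g04404, on chromosome 5, showed the opposite arrangement, with 37.0, 25.2 and 14.98 CPM under GDPH and 324, 156 and 54.3 CPM under urea. Here the Control plots spread over a 5.97-fold range, and library 1 was the highest in both treatments. Without Control replicate 1 its log2 fold change was -2.03, against -2.79 with all libraries, and its level is uncertain for the same reason as that of Vitvi10g01839.

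Levels of different genes can be set against each other only per length, as TPM. On the deposited TPM scale, Vitvi03g04038 averaged 306 TPM under GDPH and 1582 TPM under urea, and was again the highest of the 81 in Control berries. Vitvi01g01923 came next with 179 TPM under GDPH and 1311 TPM under urea, ahead of Vitvi10g01839 with 172 TPM under GDPH and 1005 TPM under urea. Vitvi03g00048, of rank 4 by CPM, was of rank 18 by TPM, at 25.2 TPM under GDPH and 122 TPM under urea. Its count per TPM was 1.46 times that of the median tested gene, whereas that of Vitvi03g04038 was 0.291 times. Over all 81 genes the median of the mean TPM was 2.36 under GDPH and 19.1 under urea.

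**Figure D2:**
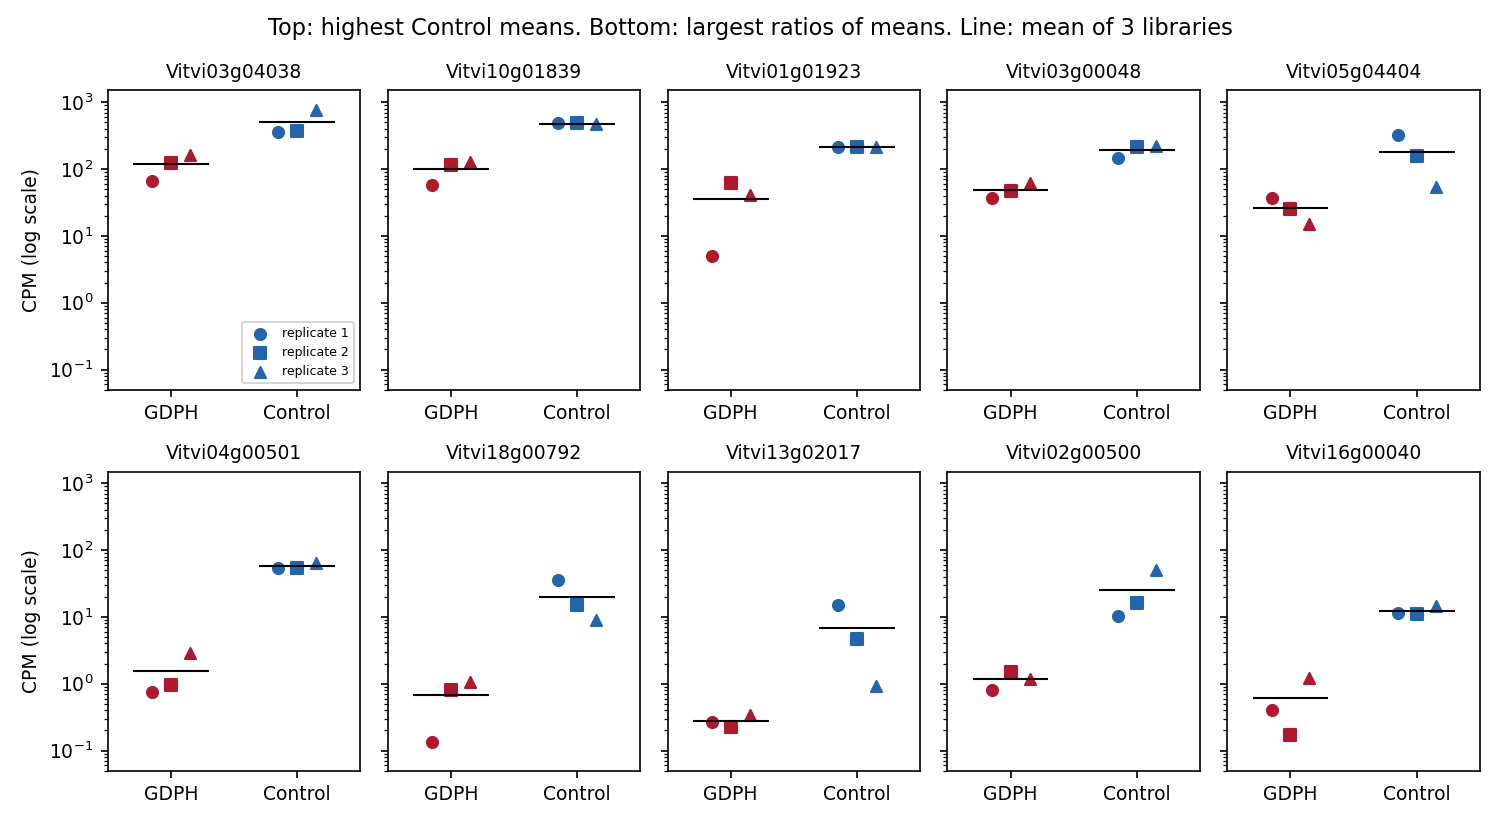
CPM on a log scale in each GDPH library (red, left) and each Control library (blue, right) for the 5 genes with the highest Control means (top) and the 5 with the largest ratios of means (bottom); symbols give the replicate number and lines the mean of 3 libraries. The Control values of Vitvi10g01839 lie between 471 and 488 CPM, whereas those of Vitvi13g02017 lie between 0.924 and 15.1 CPM.

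The largest ratios were found among less abundant genes. Vitvi04g00501, on chromosome 4, had 0.741, 0.971 and 2.93 CPM under GDPH, against 54.8, 54.3 and 65.0 CPM under urea, a ratio of 37.5. Its Control plots were close together, and its GDPH libraries held 11, 17 and 52 counts. For numbers 1, 2 and 3 the gene was 74.0-fold, 55.9-fold and 22.2-fold lower. With 1 library left out its log2 fold change ran from -6.06, without GDPH replicate 3, to -4.88, without GDPH replicate 1. It was -5.20 with all libraries. Vitvi16g00040, on chromosome 16, had a ratio of 20.4, with 0.404, 0.171 and 1.24 CPM under GDPH and 11.4, 11.1 and 14.5 CPM under urea. It too was even under urea, but its GDPH values rest on 6, 3 and 22 counts, and it held fractional counts. With 1 library left out its log2 fold change ran from -5.43, without GDPH replicate 3, to -3.87, without GDPH replicate 2. It was -4.32 with all libraries.

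In the 3 other genes with the largest ratios, 1 Control library was well above the others. Vitvi18g00792, on chromosome 18, had 0.135, 0.799 and 1.07 CPM under GDPH, against 35.8, 14.96 and 9.06 CPM under urea, a ratio of 29.9. Its GDPH libraries held 2, 14 and 19 counts, the lowest of them under the limit of 3. Without Control replicate 1 its log2 fold change was -4.11, against -4.85. Vitvi13g02017, on chromosome 13, had 0.269, 0.228 and 0.338 CPM under GDPH, against 15.1, 4.74 and 0.924 CPM under urea, a ratio of 24.9. Its lowest Control value was near its GDPH values, which rest on 4, 4 and 6 counts, and without Control replicate 1 its log2 fold change was -3.30, against -4.60. Vitvi02g00500, on chromosome 2, had 0.808, 1.48 and 1.18 CPM under GDPH, against 10.3, 16.2 and 50.6 CPM under urea, a ratio of 22.2. Here Control library 3 was the high one, and without it the log2 fold change was -3.49, against -4.45.

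Fitted across all 16030 genes with edgeR's quasi-likelihood test, 68 of the 81 genes were called lower at 0.05 after Benjamini-Hochberg adjustment, where 8.23% of all tested genes were called lower. The 13 not called included Vitvi01g01923, Vitvi02g00110 and Vitvi05g04404, described above, with edgeR adjusted p of 0.084, 0.065 and 0.052. With the replicate number as a block, Vitvi01g01923 was again not called (edgeR adjusted p = 0.141), whereas Vitvi02g00110 and Vitvi05g04404 were. The rule used the same contrast, so nothing is read from the count of 68. It depended on single libraries: 38 of the 81 were called without Control replicate 2, where 1.95% of tested genes were called lower, and 39 without GDPH replicate 2, where 2.46% were. The rule itself also moved, to 129 genes without GDPH replicate 3, among them 80 of the 81, and to 75 without GDPH replicate 1, among them 55 of the 81.

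Taken as a sum, the 81 genes held 0.0431, 0.0765 and 0.0913% of the counts in GDPH libraries 1 to 3, against 0.417, 0.422 and 0.456% in Control libraries 1 to 3. The share was lowest in GDPH library 1, and the Control libraries were nearly level. The mean share was 0.0703 ± 0.0247% under GDPH and 0.432 ± 0.0211% under urea (SD, n = 3 each), a ratio of 6.14. The 5 genes most abundant under urea supplied 44.2% of these counts under GDPH and 38.4% under urea. As TPM, the share was 0.129 ± 0.0492% under GDPH and 0.857 ± 0.0543% under urea (SD, n = 3 each). The share was larger on the TPM scale than in counts in both treatments.

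In most of the 81 genes 1 GDPH library was the lowest. The counts that follow use the values that chose the genes, and a very low GDPH library lowers the GDPH mean that the rule used, so they are a description. Without GDPH replicate 1 the rule kept 55 of the 81, and without each of the other libraries in turn 67 to 80. GDPH library 1 was the lowest of the 3 GDPH libraries in 66 of the 81 genes, or 81.5%. The comparison genes were the 11951 tested genes with a Control mean of at least 5 CPM and an average under 1000 CPM, the 81 included. Among these, GDPH library 1 was the lowest in 38.7%. Among the 1013 other genes of that set called lower, it was the lowest in 68.5%. Control library 1 was the lowest Control library in 44 of the 81 genes (54.3%). That held for 37.1% of the comparison genes and 50.7% of the other lower genes. For GDPH library 1 the count over the 81 genes was 66 with RLE factors and 67 both with library totals alone and as TPM. The share of the comparison genes was then 38.7, 42.4 and 44.5%, and that of the other lower genes 68.7, 71.3 and 72.8%. By number, the median log2 ratio of GDPH to Control over the 81 genes was -3.29 for number 1, -2.50 for number 2 and -2.24 for number 3. For the 1013 other lower genes it was -0.89, -0.78 and -0.73, and for the 11951 comparison genes 0.01, 0.02 and 0.00. The difference between these sets of genes was not tested, because genes of 1 library are not independent replicates.

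**Figure D3:**
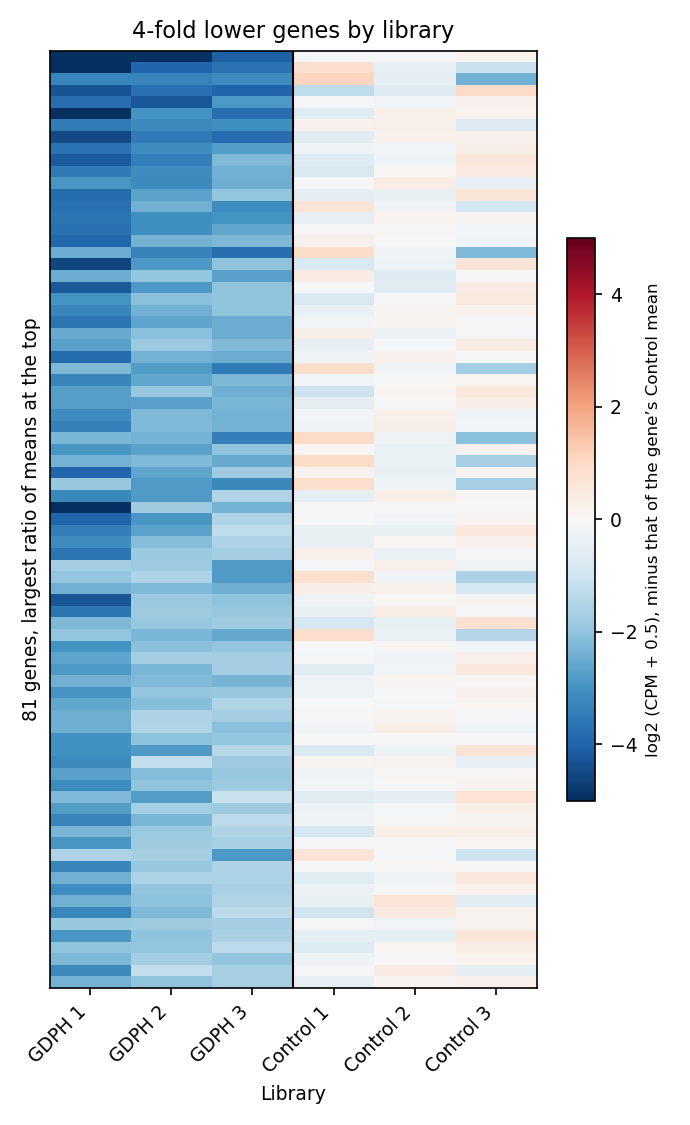
The 81 genes (rows, largest ratio of means at the top) in the 3 GDPH libraries (left) and the 3 Control libraries (right), coloured by log2 (CPM + 0.5) minus the same value of the gene's Control mean. GDPH 1 is the darkest blue column, the lowest GDPH library in 66 of 81 genes, and a few rows are red in Control 1 and blue in Control 3.

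Plots of one treatment differed more for these genes than for others. The median coefficient of variation over plots was 45.4% under GDPH and 26.6% under urea for the 81 genes, and 10.2% under GDPH and 10.5% under urea for the 11951 comparison genes. Low counts widen such a spread, so genes of like level were set side by side. Of genes with a GDPH mean of 1 to 5 CPM, the 42 among the 81 had a median of 44.5% under GDPH, and all 3154 tested genes of that level had 24.4%. Of genes with a Control mean of 5 to 100 CPM, the 68 among the 81 had a median of 28.5% under urea, and all 10031 tested genes of that level had 11.1%. The rule was applied to the same values, so this difference in spread is a description and was not tested.

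The Control plots were widely apart for a small group of the genes. In 9 of the 81, or 11.1%, the highest Control value was at least 4 times the lowest, a limit chosen after the values were seen. Among the comparison genes it was 127 of 11951, or 1.06%. A very high Control library raises the Control mean that the rule used, so this contrast is a description and was not tested. One of the 9 was Vitvi02g00500, highest in Control 3. The other 8 were all highest in Control 1 and lowest in Control 3, an arrangement found in 59 of the 127. They were Vitvi13g02017 and Vitvi05g04404, described above, with Vitvi01g01512, Vitvi13g00410, Vitvi04g01278, Vitvi13g02014, Vitvi07g00457 and Vitvi02g00374, which were named after their values were seen.

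In most of these 8 genes the same numbers were high and low under both treatments. Vitvi01g01512 had 12.3, 6.62 and 4.73 CPM in GDPH libraries 1 to 3, against 134, 62.9 and 15.01 CPM in Control libraries 1 to 3. Vitvi07g00457 had 13.7, 7.02 and 5.18 CPM under GDPH, against 96.2, 44.9 and 16.2 CPM under urea. Both genes were highest in library 1 and lowest in library 3 under each treatment, over an 8.95-fold and a 5.93-fold range under urea and a narrower 2.61-fold and 2.65-fold range under GDPH. Vitvi13g00410 had 11.99, 11.4 and 5.18 CPM under GDPH, against 117, 51.2 and 13.9 CPM under urea. Vitvi02g00374 had 7.47, 5.99 and 4.84 CPM under GDPH, against 57.8, 24.6 and 10.97 CPM under urea. With Vitvi05g04404, these made 5 genes of the 8 that were highest in library 1 and lowest in library 3 under both treatments. Vitvi04g01278, with 2.15, 2.45 and 1.86 CPM under GDPH and 25.3, 10.4 and 3.81 CPM under urea, was lowest in library 3 in both. So was Vitvi13g02014, with 1.28, 1.83 and 0.450 CPM under GDPH and 11.6, 5.61 and 1.85 CPM under urea. The exception was Vitvi13g02017, whose GDPH values were all near the counting limit.

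In these 8 genes, and in the other 73, the median ratio of Control to GDPH fell from number 1 to number 3. It was 9.40, 5.35 and 2.93 for numbers 1, 2 and 3 in the 8, and 10.1, 5.67 and 4.95 in the other 73. The 8 were picked for Control 1 at least 4 times Control 3, so nothing is read from the fall in their ratios. GDPH library 1 was the lowest GDPH library in 66 of these 73 genes and in 0 of the 8. The limit on the range of Control values just left out Vitvi18g00792. Its Control values were also highest in library 1 and lowest in library 3, over a 3.95-fold range, but its GDPH values were lowest in library 1. The same held for Vitvi18g01019, over a 3.04-fold Control range. Vitvi05g02185, over a 3.47-fold Control range, was highest in library 1 and lowest in library 3 under both treatments. Without a replicate block 3 of the 8 were called lower by edgeR, where 8.23% of all tested genes were, and with it 8 of 8. The 8 were picked for a difference between Control 1 and Control 3, which a block on the number takes up, so nothing is read from that gain. Over all 81 genes the replicate block gave 76 called lower, where 12.2% of tested genes were. It added 11 genes and lost 3.

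**Figure D4:**
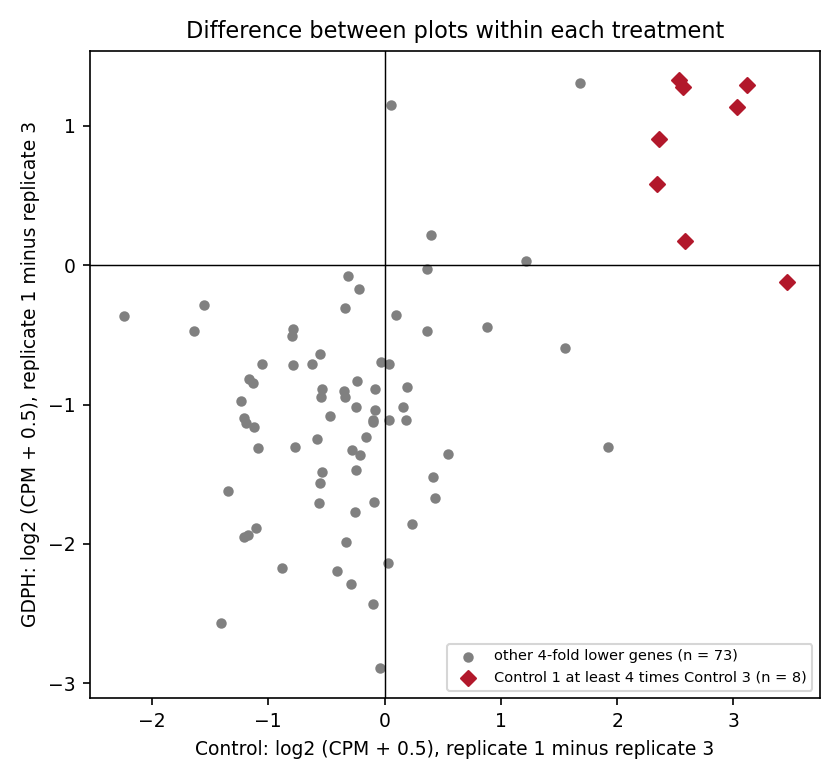
Difference between replicates 1 and 3 within GDPH (vertical) and within Control (horizontal), as log2 (CPM + 0.5) of replicate 1 minus replicate 3, for the 81 genes. The 8 genes with Control 1 at least 4 times Control 3 (red diamonds) lie on the right because they were picked for that difference. Of these 8 genes, 7 lie above the horizontal zero line, while most of the other 73 lie below it.

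Over the 81 genes the numbers came in the same order under both treatments in 34, or 42.0%, against 29.0% of the comparison genes and 31.3% of the other lower genes. With RLE factors the count was 34, with library totals alone 36 and as TPM 37. The share of the comparison genes was then 28.9, 28.8 and 29.1%, and that of the other lower genes 31.0, 33.3 and 36.2%. The lowest library had the same number in both treatments for 54 of the 81 genes (66.7%). In the comparison genes this held for 46.6% and in the other lower genes for 51.6%. The highest library shared its number in 47 of the 81 (58.0%), against 50.5% of the comparison genes and 47.7% of the other lower genes. Across the 81 genes, deviations from the treatment mean correlated at Pearson's r of 0.447 between the libraries numbered 1, 0.0937 between those numbered 2 and 0.581 between those numbered 3. Between unlike numbers r ran from -0.522 to 0.162, the highest between GDPH 1 and Control 2, above the value for number 2. This is a description across genes that share the same libraries.

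A further test, chosen after the values were seen, asked which genes differed between numbers once treatment was in the model. It used the same libraries as the rule, which favours genes with a very low GDPH or very high Control library. Its counts over the 81 genes are therefore a description. Of the 81 genes 1 passed (edgeR, same adjustment and threshold), where 0.268% of all 16030 genes did. That gene, Vitvi18g00683 on chromosome 18, had 16.03, 18.7 and 50.3 CPM under GDPH, against 82.7, 113 and 211 CPM under urea. Its edgeR adjusted p was 0.037 for the replicate number. For treatment it was 0.051 without the block, so the gene was not called lower there, and 0.00074 with the block. The gene was highest in library 3 in both treatments, and for numbers 1, 2 and 3 it was 5.16-fold, 6.04-fold and 4.20-fold lower under GDPH. The count of 1 depended on the setting. It was 0 with library totals alone, 0 without edgeR's robust option, 0 with a filter of 5 CPM in 3 libraries and 6 with no filter, where 1.14% of all tested genes passed. It was 22 without Control replicate 1, where 4.8% of all tested genes passed, and 10 without GDPH replicate 1, where 1.92% passed. It was 8 without GDPH replicate 3, where 1.19% passed, and 4 without Control replicate 3, where 0.477% passed. Without either replicate 2 it was 0, as over all genes. The 8 genes with widely spread Control plots did not pass this test, so their shared order remains a description.

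The 81 genes included many with short transcripts. Length was taken as estimated count per TPM, relative to the median tested gene of a library. Its median was 0.860 for the 81 genes, which ran from 0.0764 to 3.14, and 1.09 for the 11951 comparison genes. Of the 81 genes 24, or 29.6%, were shorter than 0.5 times the comparison median, against 13.5% of the comparison genes. Vitvi03g04038, Vitvi10g01839 and Vitvi01g01923 were among the short ones, at 0.291, 0.440 and 0.151. The difference in length was not tested.

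Fractional counts were found in 13 of the 81 genes, or 16.05%, and in 9.46% of the comparison genes. Of the 81 genes, 4 had a relative length between 0.19 and 0.21, and all 4 held fractional counts, as did 10 of the 51 comparison genes of that length. They were Vitvi13g02017, Vitvi13g02014, Vitvi13g00410 and Vitvi01g01982, named after their values were seen, with lengths of 0.199, 0.1995, 0.1997 and 0.1997. Vitvi01g01982 had 5.72, 14.9 and 26.9 CPM under GDPH, against 109, 74.0 and 106 CPM under urea, so its Control libraries did not share the order of the other 3 genes. Fractional counts occurred in 4 of the 8 genes with Control 1 at least 4 times Control 3. Without these 13, 60 of the remaining 68 genes were called lower in the fit that called 8.23% of all tested genes lower, and the median log2 fold change was -2.48.

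By identifier the genes came from all 19 chromosomes. Chromosome 5 held 12 of the 81, or 14.8%, against 5.63% of the comparison genes, and the next highest share was 8.64% on chromosome 7, against 7.76%. None (0) was on sequence not placed on a chromosome, which held 88 of the comparison genes. The share on chromosome 5 was at least 10.2% when the genes were chosen with RLE factors, with library totals alone or at a 3-fold limit. Those lists held 80, 81 and 81 of the same 81 genes, so nothing is read from the kept share. It was lowest, at 10.2%, with the 3-fold limit, the longest of these lists with 176 genes. Whether chromosome 5 holds more than its share was not tested.

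In 2 pairs of genes the identifiers were at most 5 apart. Vitvi13g02014 and Vitvi13g02017 differ by 3, had nearly the same relative length, and both held fractional counts. Whether reads were shared between these genes was not tested, and their separate levels are uncertain. Both had Control 1 highest and Control 3 lowest. Vitvi03g00712 and Vitvi03g00717 differ by 5 and held whole counts only. Vitvi03g00712 had 2.69, 3.20 and 5.405 CPM under GDPH, against 24.9, 18.1 and 26.5 CPM under urea. Vitvi03g00717 had 8.82, 10.05 and 8.61 CPM under GDPH, against 62.0, 57.6 and 26.4 CPM under urea. The GDPH plots of Vitvi03g00717 were close together, unlike those of most of the 81 genes, and Control library 3, the highest for Vitvi03g00712, was the lowest for Vitvi03g00717.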

How the data were processed

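Per the labels' protocols, stranded mRNA libraries were made from RNA of pooled deseeded berries. The submitters' processing notes list STAR 2.7.9a and RSEM 1.3.3. Genome build, annotation and read filtering: not given in the sources used here. Of the authors' tables, one holds unscaled expected counts and the other TPM, deposited for the same 6 libraries, and both were used. Values are relative within a library, so abundant transcripts that increase lower the share of all others.

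Estimated counts were rounded, passed through filterByExpr of edgeR (count of 10, total of 15, grouped by treatment) and scaled by TMM. GDPH was tested against Control with edgeR's robust quasi-likelihood F test over all 16030 genes, with Benjamini-Hochberg adjustment. Fractional means more than 1e-09 from a whole number. Relative length used libraries with at least 1 TPM. The fit was tested on simulated counts. Versions were edgeR 4.0.16, DESeq2 1.42.0, limma 3.58.1, R 4.3.3 and Python 3.11.15.

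GDPH and Control share replicate numbers. After centring each treatment, same-numbered libraries correlated across all genes at 0.337, 0.426 and 0.193, and other pairs at -0.320 to 0.01. The numbers were therefore taken as pairs and the fit was repeated with number as a block. The pairing comes from this check of the data, since the labels describe a block layout without saying that the number is the block.

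The genes and lists were chosen with earlier results of these data known. The 25 lists of gene descriptions could not be matched to any identifier. Named by rule were the 5 genes with the highest Control mean, the 5 with the largest ratio of means, and those nearest the 4-fold limit. All others were named after their values were seen, and a ranking of genes by likeness to the mean profile was not run. Alternatives were RLE factors, library totals, other filters and limits, DESeq2, limma on log2(TPM + 1) and log2(TPM + 0.1), no robust option, the block and each library left out. The test of replicate numbers, the window of relative length and the counts by library were added after seeing the data.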

Additional observations from a re-analysis of the deposited data

How the results depend on the processing

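Over all 16 alternatives the median log2 fold change of the 81 genes ran from -2.83 to -2.37. Each move was smaller than the SD of the 3 medians by plot number (0.547). That SD comes from single libraries of each treatment, while each fit pooled several, so nothing is read from this comparison. The rule fixed the direction in these same libraries, so nothing is read from the kept sign. Library totals alone moved the median of all tested genes to -0.17, and log2(TPM + 1) to -0.25. The replicate block gave -2.56. The number called lower stayed between 52 and 81 in 14 of 16 alternatives (76 with the replicate block, 77 with library totals, 81 with DESeq2 and with limma on TPM, 54 with no filter). All tested genes called lower moved with it, to 12.2, 14.3, 11.2, 23.6 to 24.1 and 5.27%, against 8.23%. Leaving out 1 library gave 38 to 58, with 1.95 to 5.3% of all genes. The number of genes meeting the rule was 176 at a 3-fold and 20 at an 8-fold limit, 146 at a Control mean of 2 CPM, 52 at 10 CPM and 166 on TPM, which held 74 of the 81. It was 112 with library totals, and leaving out 1 library gave 75 to 129. The number passing the test of replicate numbers was 0 with totals, with 5 CPM in 3 libraries and without the robust option, 6 with no filter (1.14% of all genes), and 0 to 22 with 1 library left out (0 to 4.8%), against 1 (0.268%). The cause was not tested. For the 11 genes named by rule among the 81, 17 of 164 values lost the call and 19 gained it. None changed sign, which the rule had fixed. The sum of the 81 genes without the 5 most abundant was 0.0393% under GDPH and 0.266% under urea. Pairs of near identifiers numbered 2 to 7. Genes under 1 CPM in GDPH rest on few counts.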
